A study of Mus musculus with 19 samples.

Results

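The Mb1-Cre tumour spleens were whole spleens of 5 mice of the genotype Rosa26-HGAL+Mb1-Cre that bore tumours, and they were compared with whole spleens of 3 Wild Type mice. Both groups were picked by the titles of their arrays, and together they made up 8 of the 19 arrays of a study of lymphoma driven by conditional HGAL. The design text gives the question as how splenic cells of the HGAL lines compare with those of wild-type controls. In the tumour mice a human HGAL gene placed at the Rosa26 locus was switched on by a Cre recombinase, whereas the controls carried neither the transgene nor Cre and had no tumour, so that transgene, Cre and tumour differ between the groups together and cannot be told apart. The other tumour groups, which served as a comparison, were 4 spleens of Rosa26-HGAL+Aid-Cre mice and 4 of Rosa26-HGAL+Sca1-Cre mice. A further 3 Rosa26-HGAL+Sca1-Cre spleens, taken before tumours arose, gave a level and were in no comparison. They did enter the fit over all 19 arrays and thus its estimate of the spread. All animals were kept in a conventional facility where they met common pathogens. Their age, sex and strain are not given in the labels. The labels call the arrays biological replicates, 1 array a mouse, and nothing says whether the tumour mice shared a litter.

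HGAL, whose mouse counterpart is Gcsam, is an adaptor protein of germinal centre B cells that binds the kinase Syk and takes part in signalling from the B cell receptor. Mb1 is the older name of Cd79a, a chain of that receptor that B-lineage cells make from their first committed stage onwards, so that the Mb1-Cre driver acts in the whole B lineage. Aid is the enzyme with which germinal centre B cells mutate their antibody genes, and Sca1 marks blood stem and progenitor cells. In a mouse spleen B and T lymphocytes fill the white pulp, while the red pulp holds macrophages, neutrophils and, when blood formation is called upon, erythroid and myeloid precursors. Neutrophils load their granules in order: primary granules (myeloperoxidase, elastase) in promyelocytes, secondary granules (lactoferrin, Ngp, Camp) in myelocytes, and gelatinase and surface receptors in the last stages.

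Values are log2 expression after the RMA normalization of the authors, so that a difference of 1 is a doubling, and differences are given as Mb1-Cre tumour minus wild type with the standard error of a limma fit over all 19 arrays. In whole tissue, fewer cells of a type and less RNA per cell cannot be told apart. The 19 arrays had similar distributions, with medians from 5.23 to 5.40, and the precision is limited by the number of arrays. Several arrays stood apart. Mb1-Cre replicate 2 carried exocrine pancreas transcripts (Cpa1, a digestive carboxypeptidase, at 4.54, 8.85, 4.77, 4.67 and 4.47 in replicates 1 to 5), and wild-type replicate 2 did so to a smaller degree (Cpa1 at 4.62, 6.11 and 4.86). Y-linked transcripts were present in 4 of 5 Mb1-Cre arrays and in 3 of 3 wild-type arrays, with replicate 1 the Mb1-Cre array without them. They were present in 1 of 4 Aid-Cre and in 2 of 4 Sca1-Cre tumour arrays, so sex was not balanced between the tumour groups. H2-Ea, an MHC class II chain that common inbred strains either make or lack, was at 4.17, 10.79, 4.19, 8.76 and 4.01 in the 5 Mb1-Cre spleens. It was near background in the 3 wild-type spleens, at 4.22, 3.85 and 3.71, so 2 of the 5 tumour mice had a transcript that the controls lacked. The part of pancreatic tissue and sex in the results below was tested only by leaving arrays out or by a covariate for sex, where this is stated. The part of strain was not tested.

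Against wild type, 0 of 22180 genes passed a Benjamini-Hochberg adjusted p of 0.05 in limma, and the smallest adjusted p was 0.125. At an unadjusted p under 0.05 there were 2514 genes, 11.3% of those tested, 1138 of them (5.13%) higher and 1376 (6.20%) lower in the tumour spleens. The 5 tumour values lay above all 3 wild-type values for 909 genes, or 4.10%, and below all of them for 1193 genes, or 5.38%. Over all genes the median difference was 0.00, and 50.1% of genes were higher. Against this background the clearest groups of genes were those of neutrophils and their precursors, which were higher in the tumour spleens, and those of B cells and of MHC class II, which were lower. Because 0 genes were called, the lists are described by their counts and medians. The shares over all genes, 4.10% higher and 5.38% lower without overlap, are the background for every list count against wild type.

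**Figure D1:**
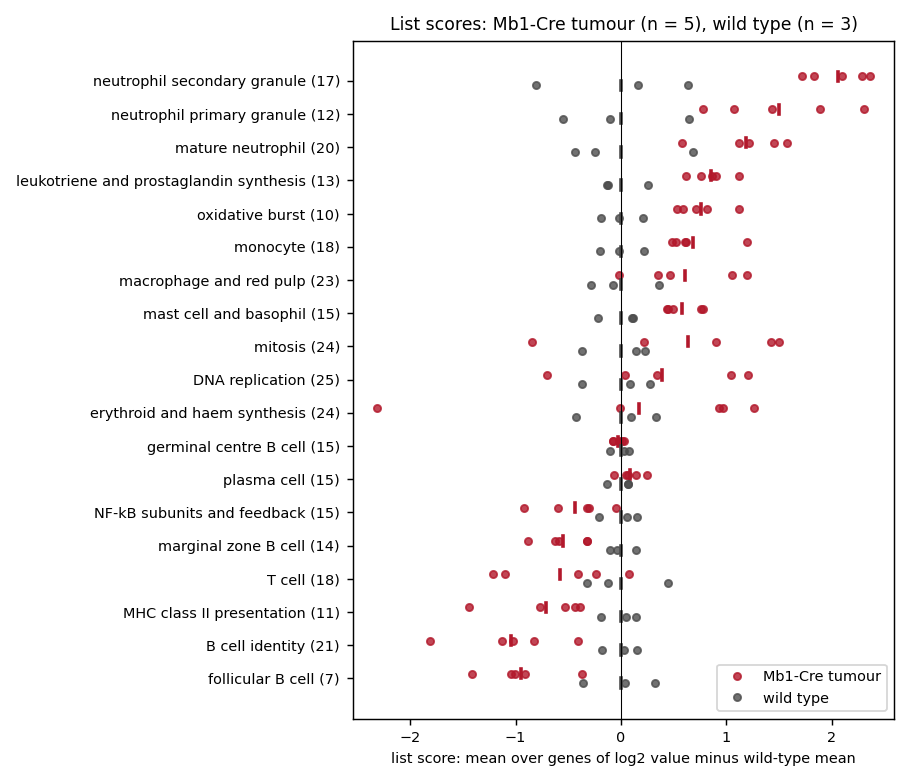
Score of 19 gene lists in each array, as the mean over the genes of a list of the log2 value minus the wild-type mean; red points are the 5 Mb1-Cre tumour spleens, grey points the 3 wild-type spleens, vertical bars the group means, and the number of genes measured stands in brackets. The neutrophil granule scores of all 5 tumour spleens lie to the right of the wild-type points, those of B cell identity and MHC class II lie to the left, and the erythroid and mitosis scores spread on both sides.

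The list named for the secondary granule genes of neutrophils stood highest. It is not made of granule proteins alone, as it also holds the surface antigen Ly6g, the receptor Trem3, the membrane protease Adam8 and Cyp4f18. Secondary granule genes below means the members of this list. Of 17 genes, 16 were higher in the Mb1-Cre tumour spleens, all 16 of them with every tumour value above every wild-type value, where 4.10% of all genes did so, and the median difference was 2.17. The exception was Cyp4f18, which inactivates leukotriene B4, with a difference of -0.07 ± 0.33. The score of the list was 2.10, 1.72, 1.83, 2.29 and 2.36 in tumour replicates 1 to 5 and -0.81, 0.17 and 0.64 in the wild-type spleens. It spanned less among the tumours than among the 3 controls. The controls were themselves uneven, with replicate 1 the lowest, and this held gene by gene for Ltf, Camp and Ngp.

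The promoters of the 4 secondary granule genes with the largest differences, picked with those values seen, are printed here because C/EBP and PU.1 proteins are the textbook regulators of granule genes. They are the 250 bases before the start in the RefSeq annotation of GRCm38.p6, written 5′ to 3′ on the strand of the gene. Capitals mark matches, on either strand, to the C/EBP-type motif TTGCNNAA or to the PU.1-type motif GAGGAA.
Ly6g, chr15:75155011-75155260, plus strand, the upstream one of 2 entries: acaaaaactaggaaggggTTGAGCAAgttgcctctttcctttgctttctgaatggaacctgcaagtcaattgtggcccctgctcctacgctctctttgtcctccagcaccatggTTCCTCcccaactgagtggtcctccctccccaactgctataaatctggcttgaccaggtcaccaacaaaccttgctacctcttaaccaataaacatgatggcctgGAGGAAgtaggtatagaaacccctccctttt
Mmp8, chr9:7558179-7558428, plus strand: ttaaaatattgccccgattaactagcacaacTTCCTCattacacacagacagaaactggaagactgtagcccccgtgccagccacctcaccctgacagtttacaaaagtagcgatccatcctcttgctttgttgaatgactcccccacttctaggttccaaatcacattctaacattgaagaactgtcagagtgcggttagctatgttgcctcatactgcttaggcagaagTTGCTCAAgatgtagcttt
Camp, chr9:109849457-109849706, minus strand: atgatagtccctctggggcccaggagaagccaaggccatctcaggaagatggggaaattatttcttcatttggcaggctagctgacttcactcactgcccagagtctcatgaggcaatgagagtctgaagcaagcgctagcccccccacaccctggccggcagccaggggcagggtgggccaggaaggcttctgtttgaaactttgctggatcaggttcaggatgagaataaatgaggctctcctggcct
Cd177, chr7:24760312-24760561, minus strand: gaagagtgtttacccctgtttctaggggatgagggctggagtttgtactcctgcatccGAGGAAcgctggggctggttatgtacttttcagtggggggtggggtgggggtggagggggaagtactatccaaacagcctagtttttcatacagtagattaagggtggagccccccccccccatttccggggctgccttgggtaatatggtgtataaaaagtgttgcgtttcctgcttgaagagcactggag
The Ly6g window held 1 C/EBP-type and 2 PU.1-type matches, that of Mmp8 1 of each, that of Cd177 1 PU.1-type match and that of Camp 0 of both. Among the secondary granule genes, 15 had a promoter entry, of which 7 (46.7%) held the C/EBP-type motif and 11 (73.3%) the PU.1-type motif, each gene counted once over its entries. Over all 27025 genes with an entry the shares were 10.8% and 25.9%. The motifs do not overlap in letters, and a match is only a run of letters, not a measured binding site.

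Ly6g, the surface antigen by which mouse neutrophils are recognised (chr15:75155261-75159128), had values of 9.90, 9.86, 10.19, 10.76 and 10.74 in the tumour spleens and 5.16, 7.09 and 7.68 in the controls. The difference of 3.64 ± 1.04 was the largest of the list, 12.5-fold, with an adjusted p of 0.238 in limma. All 5 tumour values were also above every one of the 8 other tumour spleens, which ran from 4.02 to 8.89 in the Aid-Cre and from 6.87 to 9.43 in the Sca1-Cre group. Mmp8, the neutrophil collagenase (chr9:7558429-7568486), stood at 10.88, 10.21, 10.87, 11.11 and 11.01 against 7.32, 8.23 and 8.56. Its difference was 2.78 ± 1.08 (adjusted p = 0.353). The antimicrobial cathelicidin Camp (chr9:109847377-109849456) had values of 11.23, 10.83, 10.58, 11.20 and 11.30 in the tumour spleens. The controls were at 6.54, 8.74 and 9.77, so that the gap between the groups was narrower than the range within the controls. The iron binder lactoferrin, Ltf, differed by 2.46 ± 1.13 and the granule protein Ngp by 1.81 ± 0.90. Other members with small p were Orm1, an acute phase glycoprotein (2.07 ± 0.58), Adam8, a membrane protease (1.23 ± 0.35), Ceacam10 (2.56 ± 0.73) and the receptor Trem3 (1.86 ± 0.57), and none of these overlapped between the groups.

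**Figure D2:**
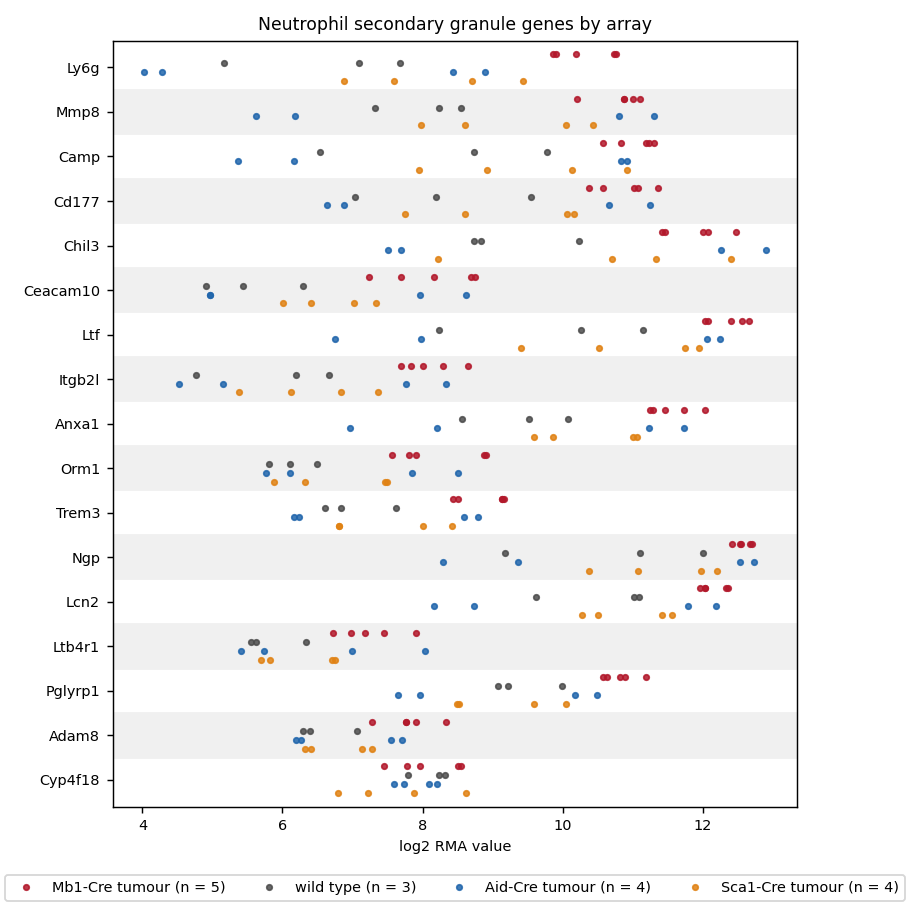
Log2 RMA value of the 17 secondary granule genes in each Mb1-Cre tumour (red), wild-type (grey), Aid-Cre tumour (blue) and Sca1-Cre tumour (orange) spleen, ordered by the difference between Mb1-Cre tumours and wild type. For 16 genes all 5 red points lie above the 3 grey ones, while for most genes the blue points of the Aid-Cre tumours split into a high and a low pair.

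Primary granule genes were higher in all 12 of 12 cases, 6 without overlap (4.10% over all genes), with a median difference of 1.76. Elane, neutrophil elastase, was at 8.51, 10.36, 8.53, 10.78 and 11.49 in the tumour spleens and 6.16, 7.53 and 8.90 in the controls. Tumour replicates 1 and 3 thus lay below the highest control. Myeloperoxidase, Mpo, was at 8.93, 9.83, 8.57, 10.33 and 11.14 against 6.39, 7.41 and 8.73, and here only replicate 3 lay below the highest control. Prtn3, proteinase 3, differed by 2.17 ± 0.81 without overlap. Fcnb, a lectin of immature granulocytes, differed by 1.95 ± 0.66, and its tumour values of 7.81 to 9.38 did not reach down to the controls at 5.82 to 7.46. Gfi1 and Cebpe are transcription factors of granulocyte precursors, and they differed by 0.50 ± 0.12 and 1.11 ± 0.37.

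Of 20 genes of mature neutrophils, 19 were higher and 9 did not overlap, with a median difference of 1.29. G0s2, an inhibitor of the fat-splitting enzyme ATGL (chr1:193272160-193273188), had the smallest p of the list. Its values were 7.68, 7.58, 7.77, 7.25 and 7.41 in the tumour spleens and 6.73, 6.58 and 7.05 in the controls, a difference of 0.75 ± 0.13 with an adjusted p of 0.152. Gelatinase B, Mmp9, differed by 2.33 ± 0.82, Slfn4 by 2.27 ± 0.75 and the calprotectin chains S100a8 and S100a9 by 1.56 ± 0.77 and 1.51 ± 0.65. Over the 3 neutrophil lists, 47 of 49 genes were higher, against 50.1% of all genes. Without overlap 31 were higher, against 4.10% of all genes.

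Enzymes that neutrophils share with other myeloid cells also had higher means. All 13 measured genes of leukotriene and prostaglandin synthesis were higher, 6 without overlap (4.10% over all genes), with a median of 0.84. Lta4h, the hydrolase that makes leukotriene B4 (chr10:93453396-93484896), was at 10.12, 9.91, 9.64, 10.15 and 10.46 against 8.42, 8.62 and 8.74. The difference was 1.47 ± 0.30, and it had an adjusted p of 0.156. Alox5, the 5-lipoxygenase that opens the pathway, differed by 1.69 ± 0.66. The glutathione transferases Mgst1 and Mgst2 were higher by 1.17 ± 0.29 and 1.13 ± 0.20. For the oxidative burst, 9 of 10 genes were higher and 4 did not overlap, among them the oxidase subunits Cybb (0.54 ± 0.15), Ncf4 (0.52 ± 0.14) and Ncf1 (0.62 ± 0.24) and Padi4, which citrullinates histones (1.72 ± 0.48). Complement and Fc receptor genes had 12 of 16 higher and a median of 0.78. Itgam, the CD11b chain of complement receptor 3, was one of them (1.48 ± 0.56).

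Other myeloid lists differed less than the granule lists. Of 18 monocyte genes 17 were higher, 8 without overlap (4.10% over all genes), with a median of 0.70. Ly6c2, the antigen of inflammatory monocytes, was at 11.39, 11.62, 11.18, 11.66 and 11.68 in the tumours and 10.09, 10.98 and 10.71 in the controls, but the receptors Ccr2 and Csf1r overlapped, with differences of 0.47 ± 0.38 and 0.53 ± 0.31. Of 23 macrophage and red pulp genes 21 were higher with a median of 0.59, yet only 2 did not overlap. Vcam1 differed by 1.18 ± 0.49, the complement chain C1qa by 0.74 ± 0.44, Spic, a transcription factor of red pulp macrophages, by 0.52 ± 0.42 and the surface marker Adgre1 by 0.42 ± 0.45. The score of this list was highest in replicates 1 and 2. The 15 genes of basophils and mast cells all had higher means, led by the protease Mcpt8 of basophils, at 7.74, 7.32, 6.82, 7.08 and 8.22 against 4.30, 5.90 and 5.75. The carboxypeptidase Cpa3 differed by 1.73 ± 0.65 and the IgE receptor chain Ms4a2 by 0.18 ± 0.29, the latter with overlap, and the median of the list was 0.18, with 7 of its genes dim. Of 8 eosinophil genes 7 were higher (median 0.52, or 0.34 without wild-type replicate 1), and of 18 progenitor genes 17 were (median 0.28), with 4 of the latter not overlapping.

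Lysozyme was measured as 2 neighbouring genes of near-identical sequence, so that transcripts of one can light up probes of the other. Lyz1 (chr10:117287795-117292868), best known from Paneth cells of the gut, had the smallest p of all genes, at 6.89, 6.43, 6.38, 6.81 and 6.53 in the tumour spleens and 5.33, 5.37 and 5.94 in the controls. The difference was 1.06 ± 0.17 with an adjusted p of 0.125. Lyz2, the lysozyme of macrophages and granulocytes, had much brighter probes, at 12.86, 12.08, 12.45, 12.59 and 12.53 against 11.85, 11.62 and 11.90. It differed by 0.71 ± 0.28, and neither gene overlapped between the groups.

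B cell genes were lower. Of 21 genes of B cell identity, 0 were higher and 15 had every tumour value below every wild-type value, where 5.38% of all genes did so; the median difference was -0.97. The score was -1.13, -0.41, -0.82, -1.81 and -1.03 in tumour replicates 1 to 5 and 0.03, 0.15 and -0.18 in the controls. Replicate 4 was lowest and replicate 2 nearest to the controls. Ms4a1 (CD20) stood at 10.26, 11.04, 10.98, 9.50 and 10.40 against 11.42, 11.63 and 11.16. The transcription factor Pax5, which maintains B cell identity, stood at 8.29, 9.29, 9.10, 7.64 and 8.43 against 9.67, 9.90 and 9.36. Both sets were separate but close to each other. Ly6d, a marker that B-lineage cells gain early, had the largest difference, -2.22 ± 0.67, and Blnk, the adaptor below the B cell receptor, differed by -1.09 ± 0.55 and Spib by -1.09 ± 0.56. Ly6d also had the smallest p of the list, and Cd79a the next.

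Cd79a itself, the gene that gives the driver its name (chr7:24897497-24901858), was at 10.03, 11.25, 10.91, 9.89 and 10.76 in the tumour spleens and 12.10, 12.38 and 12.03 in the controls. The difference of -1.60 ± 0.63 (adjusted p = 0.358) was larger than that of its partner chain Cd79b, -0.88 ± 0.48. In the widely used Mb1-Cre line the recombinase sits inside the Cd79a gene and takes the place of its product on that allele; the labels do not say which line was used. A comparison chosen after these values were seen took the change of Cd79a from the wild-type mean minus that of Cd79b within each array. This contrast was -0.98, -0.57, -0.51, -0.89 and -0.67 in tumour replicates 1 to 5, and it lay between -0.11 and 0.18 in the controls. It lay between -0.66 and -0.05 in the Aid-Cre tumours and between -0.998 and -0.18 in the Sca1-Cre tumours. The Mb1-Cre mean differed from wild type by -0.72 (exact permutation test, two-sided p = 0.0357), from the Aid-Cre tumours by -0.51 (exact p = 0.0476) and from the Sca1-Cre tumours by -0.32 (exact p = 0.206). After adjustment over the 3 comparisons the exact permutation p-values were 0.0714, 0.0714 and 0.206, so none passed 0.05. Because the contrast was chosen from these same values, its p-values only describe it and cannot serve as a test. The lowest Aid-Cre and Sca1-Cre values belonged to the spleens with the lowest B cell scores. The part of the driver allele in the Cd79a difference was not tested.

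Of 7 follicular B cell genes 0 were higher, with a median of -1.04, and 4 did not overlap. Of 14 marginal zone genes 2 were higher, with a median of -0.45. The lists of later B cell stages stood near the controls. Germinal centre genes had a median of 0.07 with 10 of 15 higher, and their scores in the tumours (-0.08 to 0.03) lay within those of the controls (-0.10 to 0.08) and averaged slightly below 0, against the sign of the median. Gcsam, the mouse gene itself, was at 5.12, 5.90, 5.34, 5.60 and 5.65 against 6.02, 5.92 and 5.36, a difference of -0.24 ± 0.72, and a mouse probe is no check of the human transgene. Plasma cell genes had a median of 0.18, with 10 of 15 higher and 5 lower. In each direction 2 were free of overlap, where 4.10% of all genes were higher and 5.38% lower without overlap. Sdc1 (CD138) was at 0.28 ± 0.13, Prdm1 at 0.31 ± 0.24 and the immunoglobulin joining chain Jchain at 0.34 ± 0.24. Also on the plasma cell list, Creb3l2 was higher and Ell2 lower, both without overlap. Early B cell and recombination genes were higher in 11 of 13 cases (median 0.30), 3 without overlap, with 5 of the 13 dim. They include Igll1, a part of the surrogate light chain, and Myb, which early precursors of other lineages make too. With single arrays left out, differences ran from 0.22 to 0.36 for Igll1 and from 0.56 to 0.90 for Myb. They were larger for Bst1 (1.25 to 1.75) and for Erg (1.55 to 2.02), which is also on the progenitor list.

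Of a list of 13 genes, immunoglobulin constant regions and the joining chain, 3 were measured under a single symbol. They were Ighm, Ighg3 and Jchain, and the last is not a constant region gene. Ighm, the IgM heavy chain, was high in every spleen (13.27 to 13.47 in the tumours, 13.14 to 13.38 in the controls) and differed by 0.10 ± 0.12. Ighg3, the IgG3 heavy chain, was at 12.19, 10.47, 11.84, 11.34 and 11.22 in the tumours and 9.49, 9.30 and 10.36 in the controls. The groups did not overlap, and the difference was 1.70 ± 0.70 (adjusted p = 0.385). Cells of a B cell clone share their variable segments, but only 17 V segment genes were measured under a single symbol. For each of the 8 arrays the segment that stood farthest above the median of the other 7 was found. In replicate 5 this was Igkv4-91, by 1.92, and in replicate 2 Igkv6-14, by 1.86. The excess was 1.25 in replicate 1 and 0.96 in replicate 3, both for Ighv1-47, and 1.05 in replicate 4 for Igkv9-124. In wild-type replicates 1 to 3 it was -0.03, -0.12 and 1.25, the last again for Igkv4-91. The 2 largest excesses were in tumours, but replicates 3 and 4 lay below the highest control and replicate 1 was level with it. Ighv1-47 was highest in replicate 2, at 10.53 against 10.45 in replicate 1 and 10.16 in replicate 3. Igkv9-124 was at 8.82 in replicate 5 and 8.68 in replicate 4, so neither segment was particular to the spleen it was found for.

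MHC class II genes were lower together with the B cell genes. Of 11 genes 0 were higher and 8 did not overlap (5.38% over all genes), with a median of -0.69. H2-DMb1, a chain of the peptide exchanger H2-DM, was at 7.50, 6.91, 7.12, 6.21 and 7.02 against 8.21, 8.70 and 7.81, a difference of -1.29 ± 0.44. Ciita, the master activator of the class II genes, differed by -0.89 ± 0.56, and H2-Aa by -0.69 ± 0.42. Replicate 4 was the lowest tumour for each of these 3 genes. Of 15 NF-kB genes 0 were higher, 4 did not overlap, and the median was -0.37. Those 4 include Nfkb2 (-0.75 ± 0.34), Relb (-0.37 ± 0.18) and Cd40, a receptor of B cells (-0.89 ± 0.48). The list of B cell receptor components and HGAL partners had 15 of 17 lower and a median of -0.32. T cell genes were lower in 18 of 18 cases with a median of -0.59, but 0 of them were free of overlap and the median was -0.35 without wild-type replicate 2, or -0.39 if the arrays holding pancreatic transcripts were left out. Cd3e was at 10.22, 9.99, 9.35, 8.69 and 8.60 in the tumours and 10.24, 10.53 and 9.94 in the controls, with replicates 4 and 5 low and replicates 1 and 2 among the controls. Cd8a was likewise lowest in replicates 4 and 5, and Cd4 differed by -0.08 ± 0.44.

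**Figure D3:**
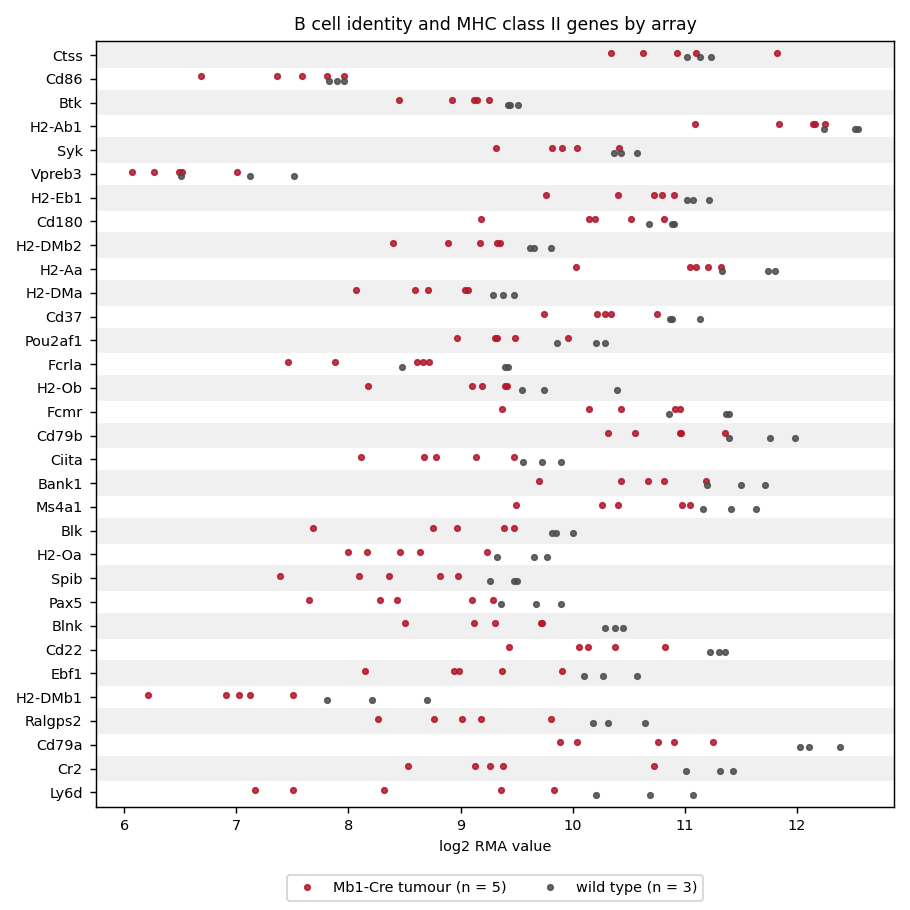
Log2 RMA value of the measured B cell identity and MHC class II genes in each Mb1-Cre tumour (red) and wild-type (grey) spleen, ordered by their difference. The grey points lie at the upper end of most rows, with 23 of 32 genes free of overlap, and the leftmost red point is most often the same spleen, replicate 4.

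The 5 tumour spleens were far from alike in erythroid and dividing-cell genes. The erythroid and haem synthesis score was -2.31, -0.01, 0.93, 1.26 and 0.97 in replicates 1 to 5, against 0.09, -0.43 and 0.33 in the controls. Replicate 1 was thus far below the controls, replicate 2 among them and replicates 3 to 5 above them. Klf1, the master factor of red cell precursors, showed this range gene by gene, at 5.60, 8.61, 9.77, 10.52 and 10.12, with the controls at 9.10, 8.55 and 8.93; Gata1 was at 6.34, 8.24, 8.90, 9.78 and 9.55. The group difference of Klf1, 0.07 ± 1.11, says little about any single tumour. All 24 measured mitosis genes were higher on average (median 0.63) and so were all 25 DNA replication genes (median 0.38), but 0 and 0 of them were free of overlap. The mitosis score was -0.85, 0.22, 0.90, 1.50 and 1.42 in the tumours and 0.14, -0.37 and 0.23 in the controls, and it ranked the 5 spleens in the same order as the erythroid score. The medians of these 3 lists depended on single arrays. The erythroid median of 0.21 became 0.83 without replicate 1, 0.03 without replicate 3, -0.07 without replicate 4, -0.01 without replicate 5, -0.04 without wild-type replicate 2 and 0.39 without wild-type replicate 3. The mitosis median became 1.01 without replicate 1, 0.40 without replicate 4 and 0.41 without replicate 5. That of DNA replication became 0.66 without replicate 1, 0.22 without replicate 4, 0.16 without replicate 5 and 0.21 without wild-type replicate 2.

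Replicate 1 differed from the other tumours in more than erythroid genes. It had the highest monocyte score, 1.20, 0.48, 0.52, 0.61 and 0.62 in replicates 1 to 5, and the highest score of natural killer and cytotoxic genes, 1.29, -0.02, -0.05, -0.20 and -0.82. It also had the highest immediate early score, 1.56, 0.34, 0.65, -0.07 and -0.07. Its mature neutrophil score was also the highest, 1.58, 0.58, 1.21, 1.45 and 1.12 in replicates 1 to 5, whereas its scores for secondary granule, primary granule and B cell identity genes lay within those of the other tumours. Over all genes its mean correlation with the other 4 tumours was 0.965, the lowest of the 5, against 0.975 to 0.982 for the others. Correlations between pairs of tumours ran from 0.953 to 0.990, and those between controls from 0.986 to 0.991. The median SD of a gene was 0.169 among the 5 tumours and 0.140 among the 3 controls.

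**Figure D4:**
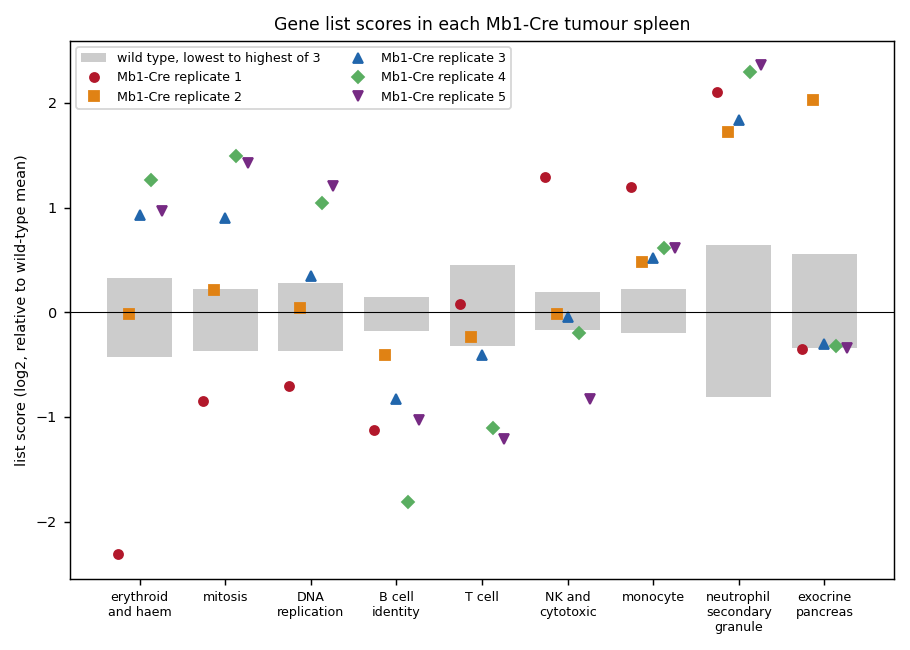
Score of 9 gene lists (log2, relative to the wild-type mean) in each of the 5 Mb1-Cre tumour spleens, 1 symbol per mouse, with the range of the 3 wild-type spleens as a grey box. Erythroid, mitosis and DNA replication scores run from replicate 1 far below the box to replicates 4 and 5 far above it, whereas the secondary granule scores lie close together above the box; replicate 2 alone is high for exocrine pancreas.

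The genes with the smallest p in each direction, among those whose groups did not overlap, were mostly outside the cell lists. Besides Lyz1, Mgst2 and G0s2, the higher ones were the zinc finger gene Zfp992 (1.23 ± 0.21), the cytokine subunit Ebi3 (0.92 ± 0.17), the chitinase-like Chil5 (1.48 ± 0.29), the transcription factor Creb3l2 (0.63 ± 0.12), the copper transporter Slc31a2 (1.04 ± 0.21), the inhibitory receptor Cd200r1 (0.93 ± 0.19) and the neuronal filament gene Ina (0.44 ± 0.09), whose probes were near background. Their adjusted p-values in limma ran from 0.125 to 0.156. Ebi3 forms the cytokines IL-27 and IL-35 with other chains, and its tumour values were 7.48, 7.80, 7.78, 7.70 and 7.75 against 6.74, 6.69 and 6.93. These 5 values lay within a range about as narrow as that of the controls, and above the 8 other tumours (6.53 to 7.28 in Aid-Cre, 6.66 to 7.41 in Sca1-Cre).

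The lower ones included Apobec3, a DNA deaminase that restricts retroviruses (chr15:79892058-79918218), at 9.66, 8.10, 7.83, 7.71 and 8.16 in the tumours and 9.98, 10.86 and 10.60 in the controls. The difference was -2.19 ± 0.47 with an adjusted p of 0.17, and replicate 1 was the tumour nearest to the controls. Cbx7, a Polycomb subunit whose annotated span overlaps the end of Apobec3 (chr15:79915804-79971143), differed by -1.46 ± 0.33, at 7.86, 7.77, 7.50, 6.76 and 7.20 against 8.58, 9.31 and 8.73. Because the spans overlap, signal of these genes may not be independent. The translation factor Eif4a2 differed by -0.90 ± 0.20, the elongation factor Ell2 by -0.71 ± 0.16, Ubxn11 by -1.03 ± 0.21 and Prelid2 by -0.79 ± 0.17. Pias3 (-0.42 ± 0.08), Ccdc137 (-0.56 ± 0.11), Rpusd4 (-0.47 ± 0.10) and Pex10 (-0.37 ± 0.08) had smaller differences. Apobec3, Prelid2 and Pias3 are on a list of 14 genes written as likely to differ between mouse strains, of which 10 were measured. Of these 6 were higher and 4 lower, with 1 and 3 free of overlap, where 4.10% and 5.38% of all genes were. That list was written with earlier results of these data known. The part of strain in these differences was not tested.

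When only the 8 arrays of the 2 groups were fitted, without the spread of the other 11 arrays, limma called 61 genes (0.275%), 54 higher (0.243% of those tested) and 7 lower (0.0316%), and the groups did not overlap for any of them. The higher genes with the largest differences were Ly6g (adjusted p = 0.0423 in this fit), Mmp8 (0.0245), Abca13 (0.0423), Chil3 (0.0439), Clec5a (0.0494), Ifitm6 (0.0423), Mmp25 (0.0403) and Ankrd22 (0.046). Chil3 is a secreted lectin of neutrophils and macrophages, Clec5a an activating receptor of myeloid cells and Mmp25 a membrane-bound protease of neutrophils. Of the genes in the 3 neutrophil lists 7 were among the 61. The 7 lower genes were Lynx1, a modulator of nicotinic receptors (-2.08 ± 0.49), Edaradd (-1.53 ± 0.46), the potassium channel Kcnk5 (-0.88 ± 0.30), Zfp273 (-0.74 ± 0.23), Dennd3 (-0.73 ± 0.26), Cyp4f13 (-0.71 ± 0.20) and Mettl23 (-0.70 ± 0.20). None is a B cell marker of the lists. Their standard errors here are those of the fit over 19 arrays, not of the fit that called them. In the fit over 19 arrays the adjusted p-values of the 61 genes were between 0.140 and 0.486.

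These 61 calls were not stable. In fits added after the data were seen, 8-array fits without 1 array called 0 genes when Mb1-Cre replicate 4, wild-type replicate 1 or wild-type replicate 2 was left out, 5 without Mb1-Cre replicate 3, 15 without replicate 5, 25 without replicate 1, 83 without wild-type replicate 3 and 121 without Mb1-Cre replicate 2. Without both arrays that carried pancreatic transcripts the 8-array fit called 0 genes. With sex as a covariate it called 19, of which 16 were among the 61.

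Against the other tumours few genes were called. Ifi202b, Apol9a, Gpsm3 and G0s2 were higher than the mean of the Aid-Cre and Sca1-Cre tumours, the 4 genes called in limma, 0.0180% of 22180, and 0 were lower. Against the Aid-Cre tumours alone 10 genes (0.0451%) were called, 7 higher (0.0316%) and 3 lower (0.0135%), and against the Sca1-Cre tumours alone 9 (0.0406%), of which 5 were higher (0.0225%) and 4 lower (0.0180%). The balance of directions depended on the processing. Against the Aid-Cre tumours it was 6 higher and 6 lower with quantile normalization. Against the Sca1-Cre tumours it was 5 and 1 with quantile normalization, 8 and 3 with cyclic loess, 8 and 25 with the sex covariate, 10 and 19 with every probe set, 1 and 4 with only the groups compared and 14 and 49 without Sca1-Cre replicate 2. At an unadjusted p under 0.05 there were 2849 genes (12.8%) against the mean of both, 1942 (8.76%) against the Aid-Cre and 3893 (17.6%) against the Sca1-Cre tumours.

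Ifi202b, an interferon-inducible DNA-binding protein of the p200 family that is known to differ between mouse strains (chr1:173962569-173982844), was at 6.44, 5.47, 5.11, 5.91 and 5.34 in the Mb1-Cre tumours. The Aid-Cre tumours were at 3.18, 3.39, 3.39 and 4.10 and the Sca1-Cre tumours at 3.45, 3.18, 3.40 and 3.49, so that every Mb1-Cre value lay above every other tumour. The difference from their mean was 2.20 ± 0.27 with an adjusted p of 0.00673 in limma. The other tumours were as dim for Ifi202b as the controls were for H2-Ea, so no fold is given and the size of the difference is uncertain. The wild-type spleens were at 4.51, 4.66 and 3.59, also below all 5, and the difference from them, 1.40 ± 0.34, was not called (adjusted p = 0.204). Ifi202b is on the strain-variable list too, and the part of strain was not tested. Ifi202b was called against the other tumours in all 23 alternatives that measured it, with differences from 2.01 to 2.37 and adjusted p-values from 0.00458 to 0.0451. Both filters on dim genes removed it.

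Apol9a, an interferon-inducible apolipoprotein L (chr15:77403789-77411080), was at 6.90, 7.32, 7.40, 7.52 and 7.33 in the Mb1-Cre tumours, 6.48, 6.71, 6.85 and 6.84 in the Aid-Cre tumours and 6.38, 6.40, 6.50 and 6.37 in the Sca1-Cre tumours. The difference from the mean of the others was 0.73 ± 0.10 (adjusted p = 0.0111), and it was called in 23 of 25 alternatives, with adjusted p-values from 0.000767 to 0.0691. Gpsm3, a regulator of G protein signalling in leukocytes (chr17:34589806-34591754), differed by 0.58 ± 0.08 (adjusted p = 0.0181) and was called in 16 of 25, with a range from 0.00572 to 0.0975. All 5 Mb1-Cre values of Gpsm3, 8.10 to 8.30, were above the 8 others, which reached 7.47 to 7.59 and 7.56 to 7.79. G0s2 differed by 0.72 ± 0.10 (adjusted p = 0.0181) and was called in 17 of 25, with a range from 0.00840 to 0.217. Its difference dropped to 0.32 when the mean of its probe sets stood for the gene.

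Of the genes called against the Aid-Cre tumours alone, Slc7a7, an amino acid transporter of macrophages, was 7.90, 8.11, 7.81, 7.75 and 7.98 against 7.02, 7.05, 7.04 and 6.80. Creb3l2 differed by 0.73 ± 0.11, Lyz1 by 0.96 ± 0.16, the scavenger receptor Colec12 by 0.99 ± 0.17 and the paraoxonase Pon3 by 1.28 ± 0.22. The lower genes were the RNA-editing enzyme Apobec1 (-1.32 ± 0.22), the natural killer receptor Klrb1c (-1.31 ± 0.22) and the microRNA gene Mir301b (-0.73 ± 0.11). Apobec1 and Slc7a7 had the Aid-Cre tumours as the group apart: Mb1-Cre and wild-type values of Apobec1 overlapped (8.65 to 9.64 and 8.66 to 9.15), and the Aid-Cre values were 9.83 to 10.68. Of the genes called against the Sca1-Cre tumours alone, Eif4a2 was lower by a difference of -1.14 ± 0.18 and Rpp14, a subunit of RNase P, by -0.65 ± 0.11. Rbx1-ps, a pseudogene (1.17 ± 0.19), and Aldh3b3, an aldehyde dehydrogenase (0.57 ± 0.09), were higher. BC064078 (-0.83 ± 0.13) and the predicted gene Gm6644 (-0.80 ± 0.13) were lower. Colec12, Pon3, Mir301b, BC064078 and Gm6644 were named after their values were seen, so that all called genes are given. These calls were often lost: the 10 against the Aid-Cre tumours were each called in 7 to 10 of the 19 or 21 alternatives that measured them. Of those against the Sca1-Cre tumours, Rpp14 was called in 4 of 21, Gm6644 in 6, Aldh3b3 in 7, Rbx1-ps in 9 of 19, BC064078 in 11 of 21, Eif4a2 in 12, G0s2 in 14, Ifi202b in 15 of 19 and Apol9a in 17 of 21.

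**Figure D5:**
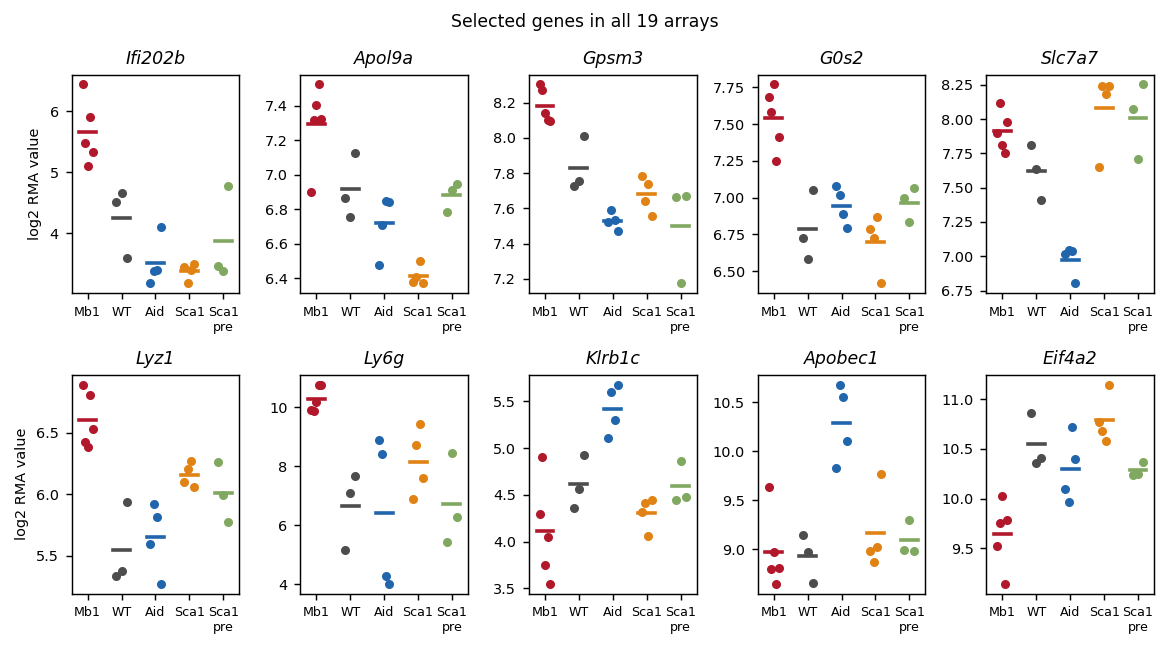
Log2 RMA value of 10 genes in all 19 arrays, by group: Mb1-Cre tumour, wild type (WT), Aid-Cre tumour, Sca1-Cre tumour and Sca1-Cre pre-tumour spleens, with a horizontal bar at each group mean. Ifi202b, Gpsm3, G0s2, Lyz1, Ly6g and Apol9a have all 5 Mb1-Cre points above both other tumour groups, whereas Slc7a7, Klrb1c and Apobec1 are displaced in the Aid-Cre tumours.

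These counts depended on single mice. Against the mean of the others the count was 49 without Aid-Cre replicate 2, 22 without Sca1-Cre replicate 3, 16 without Mb1-Cre replicate 1, 7 without Sca1-Cre replicate 2 and 2 without Aid-Cre replicate 3 or 4. Against the Aid-Cre tumours it was 27 without Mb1-Cre replicate 1, 4 without replicate 3, 2 without replicate 2 and 0 without replicate 4 or 5, and it was 1 without Aid-Cre replicate 3 and 0 without Aid-Cre replicate 1 or 4. Against the Sca1-Cre tumours it was 63 without Sca1-Cre replicate 2, 44 without Sca1-Cre replicate 3 and 0 without Sca1-Cre replicate 1 or 4, and it was 22 without Mb1-Cre replicate 1, 4 without replicate 3 or 4 and 2 without replicate 5.

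The gene lists placed the Mb1-Cre tumours at the high end of the other tumours for secondary granule genes and within them for B cell genes. All 17 secondary granule genes were higher than the mean of the other tumours, with medians of 1.79 over the Aid-Cre and 1.42 over the Sca1-Cre tumours, where the medians over all genes were -0.01 and 0.01. Only 2 of the 17, Ly6g and Pglyrp1 (a bacterial cell wall binder, named after its values were seen), were free of overlap with all 8, where 0.221% of all genes were. The scores were 1.80, 2.11, -1.46 and -1.34 in the Aid-Cre and -0.24, 1.32, 1.53 and 0.19 in the Sca1-Cre tumours. The Aid-Cre scores of 1.80 and 2.11 lay within those of the Mb1-Cre tumours (1.72 to 2.36), and the other Aid-Cre scores lay below every wild-type one. Every Sca1-Cre score lay below the lowest Mb1-Cre score. None of the list's genes was called in these comparisons. The other neutrophil lists overlapped with both tumour groups. Primary granule scores were 0.78 to 2.31 in the Mb1-Cre, -0.77 to 1.86 in the Aid-Cre and -0.37 to 1.24 in the Sca1-Cre tumours. Mature neutrophil scores were 0.58 to 1.58, -1.09 to 1.68 and 0.11 to 0.78 in the same order. B cell identity scores were -1.07, -2.96, 0.21 and 0.08 in the Aid-Cre and 0.01, -0.26, -1.81 and -0.50 in the Sca1-Cre tumours, a wider range than that of the Mb1-Cre tumours, and the median differences were -0.03 and -0.40. T cell genes had a median of -0.14 against the Aid-Cre and -0.91 against the Sca1-Cre tumours, and the T follicular helper and checkpoint list had 0.06 and -0.85. The Mb1-Cre and Aid-Cre comparisons with wild type share the same 3 controls, so they are not set against each other here.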

How the data were processed

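Whole-spleen RNA was hybridised to Affymetrix arrays, 1 per mouse. Per the submitters' processing notes, the authors normalized them by RMA with the R package oligo, whose version is not given in the sources used here. They deposited log2 values for each probe set, and these were used unchanged. Array groups came from titles.

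Of 41345 probe sets, 23521 carried 1 symbol, and the brightest stood for each of 22180 genes; no filter was applied. Group means were fitted over all 19 arrays with limma 3.58.1 in R 4.3.3 (residual degrees of freedom 14, prior 2.46), two-sided, with 0.05 as the limit for p-values adjusted by Benjamini-Hochberg; the fit was tested on simulated data. Without separate litters stated, p-values measure the spread between these mice. A list score is the mean over its genes of the value minus the wild-type mean; dim means a gene mean below the 40th percentile of all values, 4.80. Members and lists were chosen with earlier results of these data known. Genes named were, by rule, the driver and lineage marker genes, up to 10 per direction with the smallest p and no overlap (8 by difference from the 8-array fit, 5 per tumour comparison) and 5 per list; predicted genes, small RNAs and receptor segments stayed out of the rankings. Replicate numbers were not taken to pair mice: deviations of same-numbered Mb1-Cre and wild-type arrays correlated at -0.05, 0.25 and -0.08. Alternatives were other normalizations, filters, probe set rules, arrays, variance models, a sex covariate, the replicate block and arrays left out. Promoters came from RefSeq tables of GRCm38.p6. Python 3.11.15 with pandas 2.3.3 and matplotlib 3.10.9 made tables and figures.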

Additional observations from a re-analysis of the deposited data

Results flagged for a closer look

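Values of single Mb1-Cre spleens far from the other 4 (Dixon's test for 5 values, critical value 0.710) were sought over 48 list scores and 281 named genes. Of these 3 and 15 passed, together 18 of 329 values. That is close to the share that chance alone passes, about 1 value in 20. Passing therefore does not by itself set an entry below apart from chance. Replicate 1 stood apart in the monocyte score (1.20, others 0.48 to 0.62) and in the megakaryocyte and platelet score (0.85, others -0.01 to 0.21). It was low for the haem synthesis enzymes Alad (7.04, others from 9.41) and Fech (10.52, others from 11.88). It was high for Apobec3 (9.66), the natural killer receptor Klre1 (6.14), Myof (7.76), the semaphorin receptor Plxnb2 (8.87), Fbln1 (5.84) and Vpreb2 (6.40). Replicate 2 stood apart in the exocrine pancreas score (2.02, others -0.35 to -0.30) and its genes Cpa1 (8.85), Prss2 (4.60) and Sycn (8.05), was the lowest for C5ar1 (5.85) and Mmp8 (10.21), and was the highest for Ubxn11 (5.61). Replicate 4 was the lowest for H2-Aa (10.03, others from 11.04).

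The genes called between the Mb1-Cre tumours and other tumours differ between groups in the test over all arrays, though most of the calls against a single tumour group were lost in many alternatives. Against the Aid-Cre tumours the differences were 0.93 for Slc7a7, 2.14 for Ifi202b, 0.65 for Gpsm3, 0.73 for Creb3l2, 0.96 for Lyz1, 0.99 for Colec12, 1.28 for Pon3, -0.73 for Mir301b, -1.31 for Klrb1c and -1.32 for Apobec1. Against the Sca1-Cre tumours they were 2.27 for Ifi202b, 0.88 for Apol9a, 0.84 for G0s2, 1.17 for Rbx1-ps, 0.57 for Aldh3b3, -0.83 for BC064078, -1.14 for Eif4a2, -0.65 for Rpp14 and -0.80 for Gm6644. Against the mean of both they were 2.20 for Ifi202b, 0.73 for Apol9a, 0.58 for Gpsm3 and 0.72 for G0s2.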

How the results depend on the processing

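Against wild type limma called 0 genes over all arrays and in most alternatives, with 3 called when every probe set was tested, 2 with the replicate block (G0s2 and Zfp992, although the numbers do not pair the mice) and 0 to 2 with single arrays left out. Fitting only the 8 arrays gave 61, and that fit gave 19 with a sex covariate, 0 without the pancreatic arrays and 0 to 121 with single arrays left out (25, 121, 5, 0 and 15 without Mb1-Cre replicates 1 to 5, and 0, 0 and 83 without wild-type replicates 1 to 3). Against the Aid-Cre tumours the 10 calls became 0 with array weights, with only these groups and with the replicate block, 1 with the sex covariate, 2 without the pancreatic arrays and 0 to 27 with single arrays left out. Against the Sca1-Cre tumours the 9 calls became 29 with every probe set, 4 with either filter, 2 with the mean of probe sets, 5 with median centring, with only these groups and with a variance trend and robust fit, 2 with the replicate block, 33 with the sex covariate, 0 without the pancreatic arrays and 0 to 63 with single arrays left out. Against the mean of both the 4 calls became 2 with array weights, with only the groups compared and without the pancreatic arrays, 8 with every probe set, 7 with the filter above the median, 9 with the sex covariate, 3 with the replicate block and 2 to 49 with single arrays left out. The cause was not tested. Of the list medians, 704 alternative values moved by less than the spread between replicates and 16 by more. The latter were mast cell and basophil 0.76 with either filter, progenitor 0.50 with the filter above the median, early B cell 0.59 and 0.51 with the filters and 0.19 with the mean of probe sets, immunoglobulin constant 0.13 and lymphoma suppressor 0.070 without the pancreatic arrays, and lymphoma suppressor 0.071 with cyclic loess. With single arrays left out, medians ran from 1.75 to 2.44 for secondary granule, -0.015 to 0.087 for germinal centre, 0.83 to 1.07 for leukotriene and -0.069 to 0.063 for lymphoma suppressor genes. Uncalled genes near 0 changed sign: Cd4 was 0.17 without the pancreatic arrays and 0.0064 with the replicate block, Cpa1 was -0.13 without the pancreatic arrays, and Klf1 was -0.00297 with quantile normalization, -0.012 without the pancreatic arrays and -0.18 with the block. With single arrays left out, differences ran from -0.66 to 0.16 for Alad, -0.12 to 0.16 for Apobec1, -0.38 to 0.30 for Cd4, -0.59 to 0.72 for Cpa1, -0.065 to 0.14 for Itga2b, -0.01 to 0.40 for Itgae, -0.33 to 0.90 for Klf1 and -0.034 to 0.31 for Ms4a2. Signal over background limits the dim genes, which the filters remove.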

Other observations

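Several pathways not described above differed in part of the tumour spleens. Type I interferon response genes were higher in 17 of 22 cases with a median of 0.53 (scores 0.64, 1.14, 0.37, 0.23 and -0.10 in replicates 1 to 5). Without replicate 2, the array with pancreatic transcripts, the median was 0.27. Rsad2, with the smallest p of the list, differed by 0.83 ± 0.40 and Oas2 by 1.11 ± 0.55, both with overlap. Of the 22 genes, 2 were higher without overlap, against 4.10% of all genes. Glycolysis genes were higher in 10 of 14 cases (median 0.39), 4 without overlap; Hk3, a hexokinase of myeloid cells, differed by 1.42 ± 0.44. Ribosome biogenesis and Myc genes were lower in 19 of 22 cases with a median of -0.14, or -0.07 with cyclic loess, 5 without overlap, among them Nop56 (-1.40 ± 0.36) and Pes1 (-0.33 ± 0.16). Medians of other lists depended on single arrays: that of immediate early genes was 0.40 but 0.14 without replicate 1 and 0.25 without wild-type replicate 2, that of megakaryocytes 0.23 but 0.08 without replicate 1, 0.09 without wild-type replicate 2 and 0.39 without wild-type replicate 3, that of endothelium 0.18 but 0.04 without replicate 2 and that of stroma 0.11 but 0.01 without replicate 2 and 0.05 without replicate 4. The natural killer, dendritic cell, T follicular helper, regulatory T cell, Bcl2 family, lymphoma suppressor, p53 target, granulocyte growth, exocrine pancreas, interferon gamma response, MHC class I, chemokine, unfolded protein response and oxidative phosphorylation lists had medians from -0.20 to 0.21.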
